A study of Mus musculus with 4 samples.

Results

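The Notch receptors, their ligands and the Hes and Hey genes they switch on were examined in ATDC5 cells, a mouse chondrogenic line, after knockdown of Chadl. The 10 genes were taken from the pathway by role: the receptors Notch1, Notch2, Notch3 and Notch4, the ligands Jag1, Jag2 and Dll1, and the targets Hes1, Hey1 and Heyl. Every probe set whose only annotated symbol was one of these names was used, which gave 16 probe sets of 9 genes among 45141 probe sets on the array. Jag2 had none under its symbol in the annotation used and is not analysed here.

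Notch receptors are single-pass membrane proteins that are activated by ligands on neighbouring cells. Binding leads to cleavage by an ADAM protease and then by gamma-secretase, and the freed intracellular domain enters the nucleus, joins the DNA-binding protein Rbpj and turns on repressor genes of the Hes and Hey families. In developing cartilage the pathway is known as a regulator of the commitment, proliferation and maturation of chondrocytes.

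The study held 4 arrays, 2 from cells given a scrambled duplex and 2 from cells given a duplex against Chadl, which encodes a leucine-rich repeat protein of the cartilage matrix. Both groups received 30 nM of duplex with a lipid reagent, were moved after 16 h into differentiation medium, and were labelled as differentiated for 5 days. All cells were of the same line, and the only stated difference was the duplex, so a single duplex stands for the knockdown. Labels name the replicates biological but do not tell whether they came from separate cultures, and the p-values below therefore reflect only the spread among these arrays, which may be technical. The strand that the labels give for the Chadl duplex defines the knockdown group and is shown in the order the labels print it, without a stated end. The labels call the reagent an shRNA and a 27-mer duplex, while the sequence they give has 25 nucleotides, so it may not be the whole strand.

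Chadl duplex: acaagguagagaaacaaagagacca

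Chadl itself gave 4.91 and 4.84 on the control arrays and 4.29 and 4.64 in knockdown 1 and knockdown 2 on the log2 scale. The difference of -0.41 did not pass over all genes (limma, unadjusted p = 0.0158, adjusted p = 0.728). Chadl was read by 1 probe set, below the median gene in signal (47.1th percentile). The spread was wider in the knockdown group: over genes, the SD of the difference between the 2 arrays of a group was 0.10 in controls and 0.20 in knockdowns. Of 10 chondrogenic markers 10 were measured. Sox9 and Col2a1 were bright in every array, with Sox9 from 7.47 to 7.52 and Col2a1 from 8.23 to 9.17, while Matn1, from 3.63 to 4.45, and Comp, from 4.10 to 4.29, were dim. The mean of these markers was 6.15 and 6.17 in controls, 5.85 in knockdown 1 and 6.19 in knockdown 2, so the mean was lower in knockdown 1 alone. An unadjusted p under 0.05 was found for 3 of the 10 (30%, against 6.67% of all genes), and 0 passed after adjustment. Relative to the control mean, Hapln1 differed by -0.62 and -0.20 and Sox5 by -0.35 and -0.16 in knockdown 1 and knockdown 2, and Col11a1 by 0.10 and 0.20. In the same order Col2a1 differed by -0.82 and 0.12, Matn1 by -0.77 and 0.05 and Col9a1 by -0.68 and 0.17. Sox6 differed by 0.10 and -0.03 and Comp by -0.05 and 0.13. Sox9 differed by 0.0056 and -0.011 and Acan by -0.015 and -0.0087. The part of these markers in the results below was not tested. The 8 endothelial markers, all measured, had a mean between 3.59 and 3.66 on all arrays, the 4 of 6 blood markers measured between 3.61 and 3.69, and the 5 skeletal muscle markers between 3.89 and 3.93. The 5 of 6 mural markers measured averaged 5.79 and 5.89 in controls and 5.97 and 5.88 in knockdowns. Among them Acta2, smooth muscle actin, read 9.92 and 9.94 against 10.75 and 10.33. The rest did not follow it: Rgs5, Pdgfrb and Des differed by -0.08, -0.05 and -0.12 on average, and Myh11 by 0.05. The 3′ minus 5′ signal of the array's Actb controls lay between 0.80 and 0.83. That of Gapdh was 0.07 in each control, 0.09 in knockdown 1 and 0.15 in knockdown 2.

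No Notch member passed the test in either direction. Of 9 members measured, 0 passed an adjusted p of 0.05 over all 17097 genes (limma, lowest adjusted p = 0.76, for Notch2), in a comparison where 0% of all genes passed. At an unadjusted p of 0.05 the count was also 0 of 9, against 6.67% of all genes. For 2 members, Notch2 and Hey1, both knockdown arrays exceeded both controls, against 21.2% of all genes, and for 1, Hes1, both were below, against 17.1%. The groups overlapped for the other 6. With 9 genes these counts are close to the shares of the array as a whole. The median log2 difference was -0.0063 over the members and 0.0067 over all genes, and the median size of a difference was 0.07 and 0.07.

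The signals of the members were low. The array carries 23 nonspecific control probe sets, named by their number of GC bases, from 3 to 25. Their signal rose from 2.19 at 3 GC bases to 3.63 at 20 and 5.96 at 25. The member probe sets averaged between 3.10 and 5.08, inside that range. The dimmest of them, a Notch4 probe set, lay above 13 of the 23 controls. The 2 highest controls are those of 25 and 23 GC bases, an extreme composition. Above the second highest (4.42) lay 4 of the 16, both of Notch1 and those of Notch2 and Dll1, as did 45.1% of all probe sets. None lay above the highest, as did 24.8% of all. The base composition of the members' probes is not in the sources used here, so no member was called absent or present. Among 9 genes 7 were below the median gene, and Notch1 and Dll1 were just above it, at the 52.6th and 51.5th percentiles. At such levels array signal can understate a change, so the small differences that follow put no tight limit on changes in RNA.

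**Figure D1:**
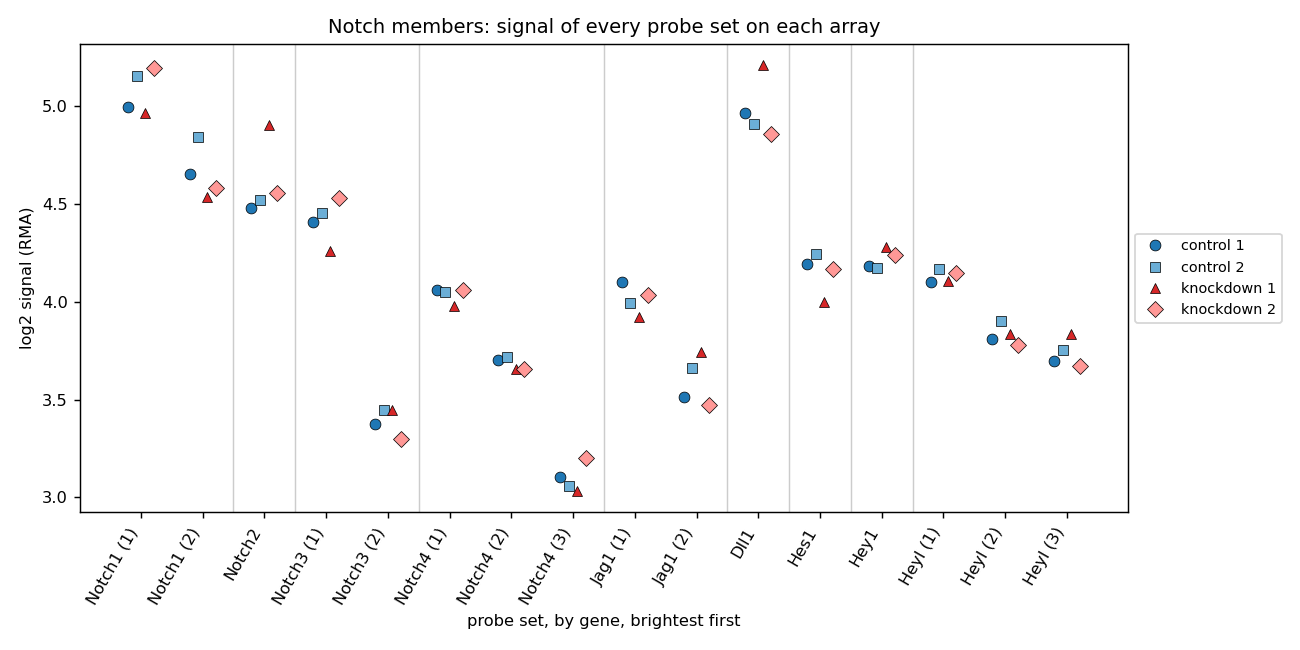
Log2 signal (vertical axis) of the 16 member probe sets, grouped by gene along the horizontal axis, with 1 point per array (circles and squares, controls; triangles and diamonds, knockdowns). The points of 1 probe set usually interleave, and the triangle of knockdown 1 stands apart above the others for Notch2 and Dll1.

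Among the receptors, Notch2 had the largest difference. Notch2, a receptor close to Notch1 in structure, gave 4.48 and 4.52 on the control arrays, 4.90 in knockdown 1 and 4.55 in knockdown 2. Both knockdown values were above both controls, but knockdown 2 by only a little, and the gap between the knockdowns exceeded that between the controls. On average Notch2 differed by 0.23 (SE 0.13, 95% confidence interval -0.07 to 0.53, limma, unadjusted p = 0.115, adjusted p = 0.76), a 1.17-fold higher signal. Without knockdown 2 the difference was 0.40 (adjusted p = 0.0109) and Notch2 passed, in a fit that called 15.1% of all genes and in which the lone knockdown array was taken to vary like the controls. Without knockdown 1 it was 0.05, and 0 members passed, in a fit that called 3.28% of all genes.

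Notch1, the best-studied mammalian receptor of the family, was read by 2 probe sets that differed in what they showed. The brighter one gave 5.00 and 5.15 on the control arrays and 4.96 and 5.19 on the knockdown arrays, with knockdown 1 below and knockdown 2 above the controls and a mean difference of 0.0036 (SE 0.11). The dimmer one read 4.65 and 4.84 against 4.53 and 4.58. Here both knockdown arrays were below both controls, by -0.19 on average (SE 0.10, limma over all probe sets, unadjusted p = 0.088, adjusted p = 0.715). It had the lowest unadjusted p of the 16 member probe sets. With the mean of both probe sets the Notch1 difference was -0.09, so the sign for this gene depends on the probe set used.

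Notch3, a receptor best known from vascular smooth muscle, gave 4.41 and 4.45 on the control arrays and 4.26 and 4.53 on the knockdown arrays on its brighter probe set. Knockdown 1 was below and knockdown 2 above both controls, and the mean difference was -0.04 (SE 0.11). The dimmer probe set read 3.38 and 3.45 against 3.45 and 3.30, with the arrays in the reverse order. Notch4, a receptor mainly of endothelial cells, read 4.06 and 4.05 against 3.98 and 4.06, a difference of -0.04 (SE 0.08), and its other 2 probe sets differed by -0.05 and 0.03. All 8 endothelial markers beside it were below the median gene, from Tie1, between 2.87 and 2.89, to Kdr, which gave 4.60 and 4.69 on the control arrays and 4.89 and 4.61 on the knockdown arrays. Both knockdown arrays were below both controls for 5 of the 8 (62.5%, against 17.1% of all genes), and 0 of the 8 had an unadjusted p under 0.05. Their part in the Notch4 values was not tested.

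Of the ligands, Dll1, a Delta-type ligand, was apart from the controls mainly in knockdown 1. It gave 4.96 and 4.91 on the control arrays, 5.21 in knockdown 1 and 4.86 in knockdown 2. The knockdown arrays thus lay on opposite sides of the controls, and the average difference was 0.10 (SE 0.13, 95% confidence interval -0.21 to 0.40). Jag1, a Serrate-type ligand, gave 4.10 and 4.0 on the control arrays and 3.92 and 4.03 on the knockdown arrays, and the groups overlapped. Its difference was -0.07 (SE 0.08) on that probe set and 0.02 (SE 0.11) on the dimmer one, which read 3.51 and 3.66 against 3.74 and 3.47.

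The differences of the targets were of mixed sign, and none passed the test. Hes1, a repressor that is the classical direct target of Notch, gave 4.19 and 4.24 on the control arrays and 4.0 and 4.17 on the knockdown arrays. Both knockdown arrays lay below both controls, and most of the difference was in knockdown 1. The knockdown mean minus the control mean was -0.14 (SE 0.09, 95% confidence interval -0.35 to 0.08, limma, unadjusted p = 0.175, adjusted p = 0.79), a 1.1-fold lower signal.

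Hey1, a repressor of the related Hey family, gave 4.18 and 4.17 on the control arrays and 4.28 and 4.24 on the knockdown arrays. The knockdown arrays exceeded the control mean by 0.10 and 0.06. Together they gave 0.08 (SE 0.08, 95% confidence interval -0.10 to 0.26, limma, adjusted p = 0.849). Heyl, a further Hey repressor, read 4.10 and 4.17 against 4.11 and 4.15 on its brightest probe set, a difference of -0.0063 (SE 0.08), and its other 2 probe sets differed by -0.05 and 0.03. The mean differences of Hes1 and Hey1, both downstream of the receptors, had opposite signs. Neither passed the test, so neither sign is resolved here.

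**Figure D2:**
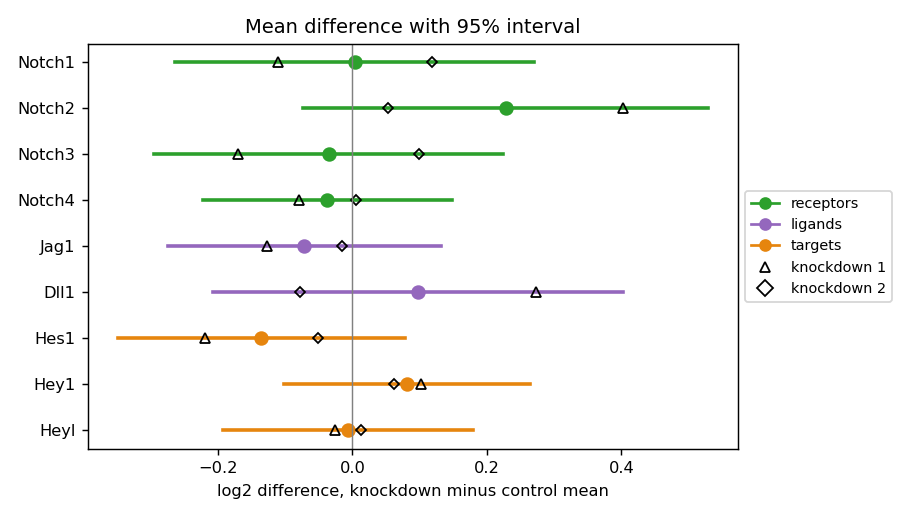
Difference in log2 signal between the knockdown mean and the control mean (horizontal axis) for the 9 members, with filled circles for the mean, bars for the 95% confidence interval of the limma fit, and open triangles and diamonds for knockdown 1 and knockdown 2. Every interval includes 0, among them those of Notch2 (-0.07 to 0.53), Dll1 (-0.21 to 0.40) and Hey1 (-0.10 to 0.26).

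The 2 knockdown arrays fell on opposite sides of the control mean in 5 of 9 members, Notch1, Notch3, Notch4, Dll1 and Heyl, and in 41.1% of all genes. For Notch4 and Heyl both differences were under 0.1 in size. The median difference over members was -0.08 in knockdown 1 and 0.01 in knockdown 2, against -0.0031 and 0.014 over all genes. Over the 16 probe sets the gap between the knockdowns was wider than that between the controls in 12, against 61.4% of all probe sets. Both counts were above the shares of the whole array, but with so few members the excess is not resolved. Counted by probe set, 7 were higher and 9 lower in knockdown, 0 had an unadjusted p under 0.05 (7.26% of all 45037 probe sets did) and 0 passed (0.00222% did). Groups were apart upward in 2 probe sets, against 18.6% of all, and downward in 3, against 19.9%. The dimmer Notch1 and 1 of the Notch4 probe sets joined Hes1 on the lower side.

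**Figure D3:**
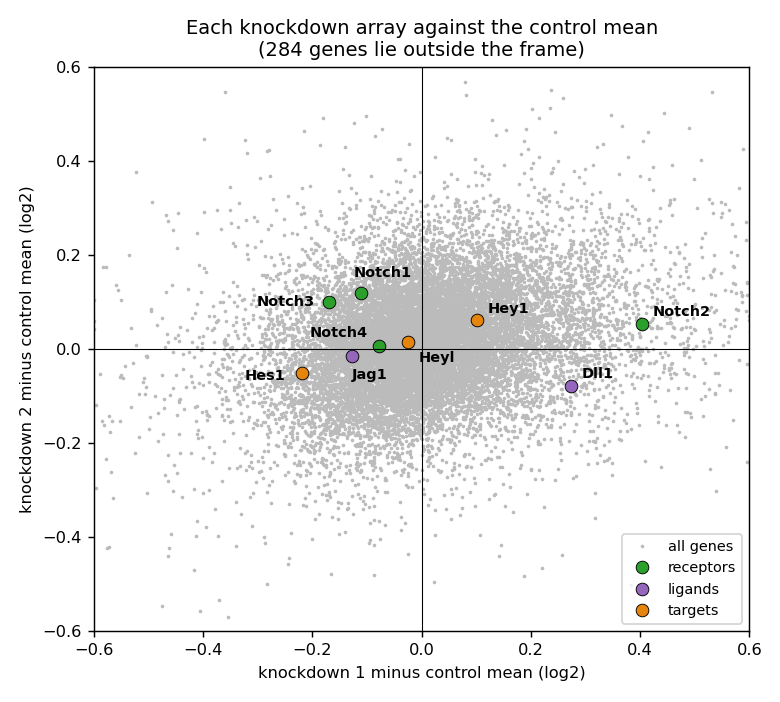
Log2 difference from the control mean in knockdown 1 (horizontal axis) and knockdown 2 (vertical axis) for all genes (grey) and the members (coloured by role), within 0.6 on each axis, which leaves 284 genes out of the frame. The members spread along the horizontal axis, with Notch2 at 0.40 and Dll1 at 0.27 furthest right and Hes1 at -0.22 furthest left, while all stay within 0.12 of 0 on the vertical axis.

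The rest of the pathway was examined through 57 further genes, of which 50 were measured. None passed over all genes (0 of 50, limma, lowest adjusted p = 0.615), an unadjusted p of 0.05 was met by 1 higher and 2 lower genes (6%, against 6.67% of all), and the median difference was -0.0079. The groups were apart upward for 12 (24%, against 21.2% of all) and downward for 13 (26%, against 17.1%). The 3 with a small unadjusted p were Nedd4, Psen2 and Aph1c, the last 2 named after their values were seen.

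Among the other ligands 5 of 6 were measured. Ccn3, a secreted matricellular protein that binds Notch, gave 4.20 and 4.31 on the control arrays and 5.22 and 4.36 on the knockdown arrays, a difference of 0.54 (SE 0.25, limma, adjusted p = 0.752). Nearly all of it was in knockdown 1, and the 2 probe sets of Ccn3 had the same sign. Ccn3 was named as the brightest of this role over all arrays, which it was only through its knockdown 1 value. On the control arrays it averaged 4.26 and Dll3 4.45. In signal Ccn3 was below the median gene (45.0th percentile). The remaining 4 in this role differed by between -0.09 and 0.01.

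In the group that modifies ligands and receptors, 10 of 10 were measured and 2 were apart in each direction. That is 20% each way, against 21.2% of all genes upward and 17.1% downward. The glycosyltransferase Rfng, which adds sugar to Notch, read 7.05 and 7.03 against 6.68 and 7.0, and 1 of its 2 probe sets had the opposite sign. The ubiquitin ligases Mib1 and Mib2, which drive ligand endocytosis, differed by -0.04 each, with Mib2 at 5.16 and 5.18 against 5.12 and 5.14 and the brightest of the group, Mib1, at 7.83 and 7.71 against 7.82 and 7.64.

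Receptor cleavage was read through 8 of 9 genes. Adam10, the protease of the first cut, was bright and level at 9.58 and 9.58 against 9.60 and 9.60, though 1 of its 3 probe sets had the other sign. Aph1a, a gamma-secretase subunit, read 6.93 and 6.92 against 6.78 and 6.83, a difference of -0.12 (SE 0.07). Psen2, a catalytic subunit, read 4.78 and 4.72 against 4.35 and 4.52, and Aph1c, a subunit paralogous to Aph1a, 4.66 and 4.33 against 5.04 and 4.78. These 2 thus differed in opposite directions, by -0.32 and 0.42, and both were below the median gene in signal.

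Of the nuclear complex 10 of 15 genes were measured. Groups were apart upward for 2 (20%, against 21.2% of all genes) and downward for 4 (40%, against 17.1%). The coactivator Crebbp read 6.0 and 6.15 against 5.95 and 5.73, a difference of -0.24 (SE 0.11), and the acetyltransferase Kat2b 8.42 and 8.41 against 8.61 and 8.47, a difference of 0.12 (SE 0.07), though 1 of 3 probe sets ran the other way. The corepressor Ctbp1, the brightest here, differed by -0.07. Rbpj, the factor through which all 4 receptors act, was named after its values were seen. It gave 8.64 and 8.60 on the control arrays and 8.56 and 8.91 on the knockdown arrays, with the arrays on opposite sides.

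All 11 negative regulators were measured, with 3 apart in each direction (27.3%, against 21.2% of all genes upward and 17.1% downward). Nedd4, a ubiquitin ligase, was lower in both knockdown arrays at 10.92 and 10.94 against 10.79 and 10.65 (difference -0.22, SE 0.05, limma, unadjusted p = 0.00351, adjusted p = 0.615), and its 2 probe sets had the same sign. Numb, an adaptor that antagonises Notch, read 6.31 and 6.32 against 6.51 and 6.47, a difference of 0.18 (SE 0.08), though 1 of 2 probe sets ran the other way. Of the other Hes and Hey genes 6 of 6 were measured and 5 were below the median gene. Hes6, the brightest, read 6.56 and 6.53 against 6.43 and 6.61, and 1 of its 2 probe sets had the opposite sign.

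**Figure D4:**
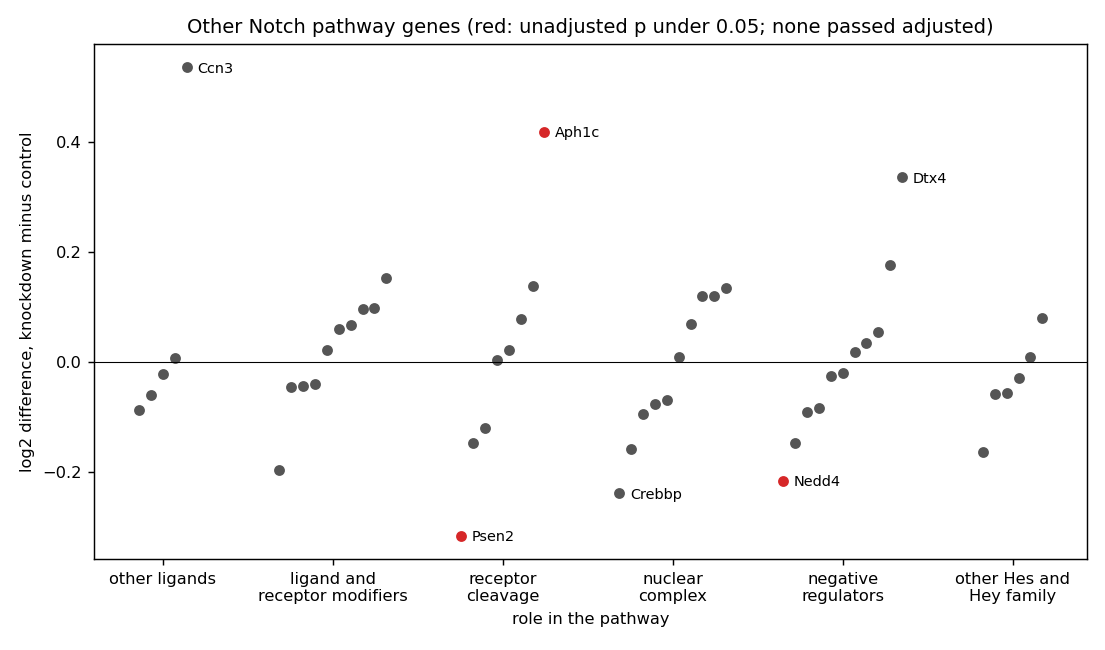
Log2 difference, knockdown minus control (vertical axis), of the 50 other pathway genes measured, by role (horizontal axis) and sorted within each role, with red points for an unadjusted p under 0.05. The points straddle 0 in every role, from -0.32 for Psen2 to 0.54 for Ccn3.

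Leaving out either knockdown array changed which pathway genes passed. Without knockdown 1, 4 of 50 passed (8%, against 3.28% of all genes), and without knockdown 2, 10 passed (20%, against 15.1%). Shared between these lists were 2 genes, Nedd4 and Neurl1b, 50% of the first and 20% of the second. Neurl1b, a ubiquitin ligase for ligands named after its values were seen, gave 5.22 and 5.22 on the control arrays, 4.89 in knockdown 1 and 5.66 in knockdown 2, so it passed in opposite directions.

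The genes whose 4 values ran closest to a member's, each gene taken relative to its control mean and compared by Euclidean distance among genes at or above the median signal, were found for the member of lowest unadjusted p in each role. For Notch2 they were 4833438C02Rik (distance 0.01), Helz2 (0.02), Specc1 (0.02) and Tgfb3 (0.03). All 4 were high in knockdown 1 and near the controls in knockdown 2, which follows from how they were chosen. The first averaged 4.81 in controls, below the median signal of 4.86, and entered the comparison only through its knockdown 1 value. For Hes1 they were Hyi (0.01), Tbc1d16 (0.02), E2f2 (0.02) and Scamp5 (0.02). For Jag1 they were Smarce1, Ak6 and Atp5b (0.01 each) and Ciao2a (0.02). Tbc1d16 and Scamp5 each had 1 of 2 probe sets of the opposite sign, and Smarce1 had 1 of 3. Of 8549 genes compared, 94 lay within 0.1 of Notch2, 379 of Hes1 and 877 of Jag1.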

How the data were processed

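The authors deposited a log2 signal for each probe set. The submitters' processing notes name RMA, which equalises the arrays' distributions and compresses dim signals. The RMA version was not given in the sources used here. That the values are log2 was inferred from their range (2.17 to 12.72). No per-sample column was unused. Of 45141 probe sets, 104 array controls were left out. Each of 17097 genes was represented by its brightest probe set with 1 symbol in the platform annotation, which can be old. Knockdown was compared with control in limma 3.58.1 under R 4.3.3 (a linear model with trended empirical Bayes moderation, 2 residual and 4.45 prior degrees of freedom), with two-sided p-values adjusted by Benjamini-Hochberg over all genes at 0.05, no filter on dim genes and no further normalization. A second fit used all 45037 probe sets. The step was tested on simulated data with changes larger than any member's difference and the same spread in both groups. That test does not bear on changes as small as those of the members. The members, lists and rules were chosen with earlier results of these data known. The rule for names took all members and, in each pathway role, up to 2 genes at or above the median signal (4.86) with groups apart and the lowest p, plus the brightest. The precision is limited by the 2 arrays per group.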

Additional observations from a re-analysis of the deposited data

How the results depend on the processing

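With 2 arrays per group and mostly dim probe sets, small changes in these genes could not be resolved. Under quantile normalization, median centring, eBayes without the trend, robust eBayes, an adjusted p of 0.1 and the fit over all probe sets, 0 members and 0 other pathway genes passed. No member changed sign under quantile normalization or median centring. The other settings of this list leave each difference as it was, so no sign could change there. With the replicate number as a block 0 members passed (limma, lowest adjusted p = 0.832, for Notch2). In this balanced design such a block cannot alter a difference, so Notch2 stayed at 0.23. The deviations of same-numbered arrays had a correlation across genes of -0.0041. With 2 arrays per group this cannot tell whether same-numbered arrays were prepared together. Without genes below the 40th percentile of signal 4 members were left, with a median of 0.051. Of these 1 was apart upward and 0 downward, against 23% and 17.1% of the genes kept. With the mean of probe sets Notch1 turned to -0.092. When each array was left out in turn, 0 to 1 members and 0 to 10 other pathway genes passed, the members' median ran from -0.079 to 0.028, and 2 to 4 members were apart upward and 2 to 5 downward (33.3% to 41.7% and 29% to 39.4% of all genes). Differences then ran from -0.078 to 0.27 for Dll1, -0.040 to 0.028 for Heyl, -0.11 to 0.12 for Notch1, -0.17 to 0.10 for Notch3 and -0.079 to 0.0048 for Notch4. The cause of these turns was not tested.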
